A study of Mus musculus with 6 samples.

Results

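The clustered protocadherin genes are 58 neighbouring genes on mouse chromosome 18 that were taken here by their symbol, as every gene whose GRCm38 symbol starts with Pcdha, Pcdhb or Pcdhg followed by a, b, c or a number. They are 58 of the 54838 genes in the deposited count table, of which 54723 could be given a symbol. The alpha cluster holds 14 of them, the beta cluster 22 and the gamma cluster 22. RNA was measured by RNAseq in the hippocampus, 1 library per mouse, from 3 wild-type females and 3 females of the line Tg(ORAI1)Ibd, all aged 7 months. The line, written FVB/NJ-Tg(Orai1)Ibd in the labels, consists of FVB/NJ mice that carry a human ORAI1 cDNA behind the Thy1.2 cassette, whose promoter is active mainly in neurons. ORAI1 is a calcium channel of the plasma membrane, and the comparison asks which transcripts differ when neurons make more of it. The strain of the wild-type mice is not stated in the sources used here, the transgenic mice represent 1 line, and nothing says whether mice shared a litter.

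Clustered protocadherins are adhesion proteins of the neuronal surface. Each alpha or gamma transcript joins a variable exon, which has its own promoter, to constant exons that all genes of the cluster share, whereas beta genes are single large exons. A neuron switches on a small and largely random set of these promoters, and the proteins bind only matching partners on other membranes, which lets branches of the same cell recognise and avoid each other. The last genes of the alpha and gamma clusters, called C-type (Pcdhac1, Pcdhac2, Pcdhgc3, Pcdhgc4 and Pcdhgc5), are chosen in a more regular way and are known for roles in axon tiling, dendrite growth and the survival of interneurons.

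On GRCm38 the 58 genes lie on the plus strand of chr18:36930184-37841873, with the alpha cluster at chr18:36930184-37187661, the beta cluster at chr18:37264938-37524479 and the gamma cluster at chr18:37661793-37841873. The shared exons decide what the deposited counts mean. The authors' counting left out fragments that overlapped more than 1 gene, so a fragment within a constant exon of the alpha or gamma cluster was given to no gene, and the count of such a gene comes mostly from its own variable exon. The exonic part that belonged to 1 gene alone had a median of 2480 bp in the alpha cluster, or 46.4% of the deposited length, and 2630 bp in the gamma cluster, or 55.3%. For beta genes it had a median of 3714 bp and 100% of the length, with a minimum of 90.3%. The extreme case was Pcdha4, with 494 bp of its own, or 8.56% of its length. Variable exons also resemble each other, since they encode the same cadherin domains. The share of read-length stretches of the own part that also occurred in another transcript had a median of 8.28% in the alpha, 0.876% in the beta and 0% in the gamma cluster, and reached 19.7% in Pcdha6. Counts of the alpha genes are therefore the least certain of the 3 clusters. In the annotation 2 genes carry the symbol Pcdha11 (ENSMUSG00000007440 and ENSMUSG00000102206), and they are given apart.

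Library totals were between 37710188 and 52497799 fragments in wild-type and between 37414241 and 47027279 in Tg(ORAI1)Ibd mice. The labels were checked with Orai1, which stood at 7.47 ± 0.527 CPM (a count relative to the scaled library total, SD, n = 3) in wild-type mice and at 320.0 ± 9.53 CPM in the transgenic ones. Thy1, whose cassette drives the transgene, stood at 639 ± 31.0 and 4034 ± 415 CPM. Markers of hippocampal neurons were present in all mice, with 7230 to 7455 CPM summed over 8 genes in wild-type mice, against 7535 to 8138 CPM in the transgenic ones, and 2 of the 8 rose. The libraries also differed in choroid plexus markers. Of 24 such genes 22 fell, with a median of -2.51 on the log2 scale and a summed level of 4112 to 6294 CPM in wild-type against 669 to 944 CPM in transgenic mice.

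All 58 genes passed the filter on low counts and took between 0.0588% and 0.0612% of the counts of a wild-type library. Per kilobase of own exonic length, the wild-type median was 0.950 FPKM (range 0.157 to 9.47) in the alpha cluster, 2.02 FPKM (0.353 to 5.07) in the beta cluster and 3.19 FPKM (1.38 to 20.7) in the gamma cluster. FPKM are used for levels between genes below, and CPM for differences between genotypes in the same gene.

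C-type genes stood at the top of the order of levels, with the exception of Pcdhac1 and Pcdhgc4. Pcdhgc3, which has been linked to dendrite branching, had the highest level of all, at 19.8, 19.6 and 22.6 FPKM in the wild-type mice, a mean of 20.7 ± 1.64. Pcdhgc5, a gene known to come on after birth, followed with 19.6, 18 and 16.5 FPKM, a mean of 18 ± 1.54. The third was Pcdhac2, which serotonergic axons need for even spacing, at 11.1, 9.60 and 7.76 FPKM, a mean of 9.47 ± 1.65. Pcdhgc3 was above Pcdhgc5 by a narrow margin, and Pcdhgc5 was clearly above Pcdhac2. Without division by length Pcdhgc5 was above Pcdhgc3, with wild-type means of 83.1 and 69.9 CPM. Pcdhgc4, the member needed for survival of interneurons, had 2.77 ± 0.406 FPKM and ranked 23rd, and Pcdhac1 had 0.955 ± 0.157 FPKM and ranked 50th.

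Among the 53 other genes, whose promoters are chosen at random in each cell, Pcdhga11 had the highest level, at 9.39, 8.50 and 7.85 FPKM in the wild-type mice. The lead of Pcdhga11 over the next gene, Pcdhb7, held in each wild-type mouse. It depended on the length used, since per deposited length Pcdhb7 had 5.07, Pcdhac2 4.87 and Pcdhga11 4.76 FPKM. In the beta cluster Pcdhb7 led with 5.07 ± 0.474 FPKM, before Pcdhb3 with 3.41 ± 0.644 and Pcdhb17 with 3.14 ± 0.146. In the alpha cluster Pcdha12 had 1.86 ± 0.20 FPKM and Pcdha11 (ENSMUSG00000007440) 1.74 ± 0.327, next after Pcdhac2. The lowest levels belonged to Pcdha8 with 0.157 ± 0.110 FPKM, Pcdha1 with 0.268 ± 0.0762 and Pcdhb1, the first gene of the beta cluster, with 0.353 ± 0.0266. Most neighbours in the order overlapped across mice. In only 4 of the 57 steps was the upper gene in its lowest wild-type mouse above the lower gene in its highest. These were the steps below Pcdhgc3, Pcdhgc5, Pcdhga11 and Pcdha11 (ENSMUSG00000102206). The first of these was nearly a tie, with 19.6 FPKM both in the lowest mouse for Pcdhgc3 and in the highest for Pcdhgc5. Compared within each mouse, further steps held, such as Pcdhb7 (4.58, 5.12 and 5.52 FPKM) over Pcdhgb6 (4.38, 4.68 and 4.51 FPKM). The highest level was 60.3 times the lowest in the alpha cluster, 14.4 times in the beta and 15.0 times in the gamma cluster. Without the C-type genes these ratios were 11.9 in the alpha and 6.21 in the gamma cluster.

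**Figure D1:**
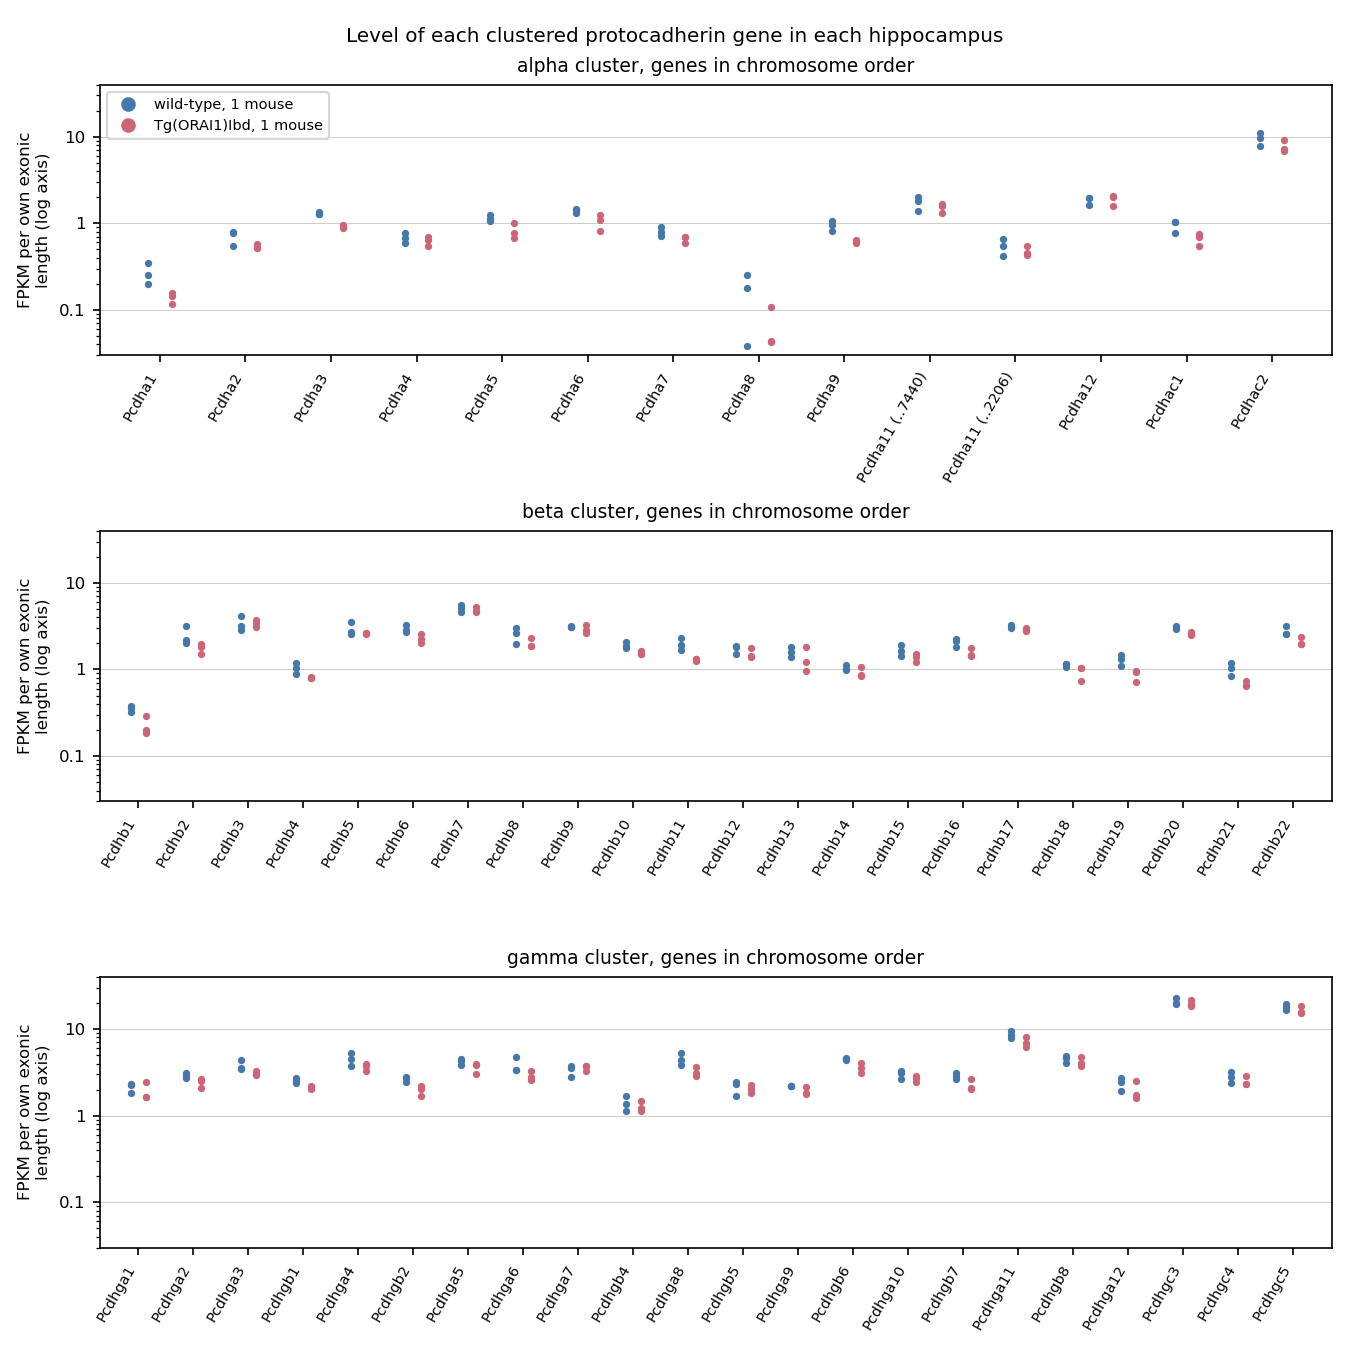
Level of each gene in each hippocampus, in FPKM per own exonic length on a log axis, with genes in chromosome order within the alpha, beta and gamma clusters; each point is 1 mouse. Pcdhgc3 and Pcdhgc5 at the right end of the gamma cluster stand above the rest, Pcdhac2 lies near Pcdhga11, and Pcdha8, Pcdha1 and Pcdhb1 are lowest.

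Between genotypes, levels of nearly all members were somewhat lower in Tg(ORAI1)Ibd mice, by a small amount for each gene. The log2 fold change (Tg(ORAI1)Ibd minus wild-type) was below 0 for 55 of the 58 genes, against 51.7% of the 19087 genes tested, and its median was -0.28, against -0.010 over all tested genes. A median of -0.28 corresponds to 0.824 times the wild-type level. The median was -0.41 in the alpha, -0.28 in the beta and -0.24 in the gamma cluster. The genes with a fold change above 0 were Pcdha12 (0.01), Pcdhb3 (0.01) and Pcdhga7 (0.09), each within 1 SE of 0. Over the 18 alternative analyses the sign turned at least once in 10 genes, in these 3 and in 7 of the 55 below 0, whose fold changes were -0.17 or nearer to 0. These 7 were Pcdha4, Pcdhb7, Pcdhb14, Pcdhb17, Pcdhgb4, Pcdhgb5 and Pcdhgc3, and the other 48 were below 0 in each analysis that tested them.

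Few members passed the test on their own. With edgeR's quasi-likelihood test and Benjamini-Hochberg adjustment over all tested genes, 3 of the 58 fell (5.17%), where 4.00% of all tested genes fell. The count depended on the tool, since DESeq2's Wald test called 6 (10.3%, against 6.16% of all tested genes), limma-voom 1 (1.72%, against 3.73%) and edgeR with DESeq2 size factors 1 (against 3.55%). The edgeR share is near the background and is no result about the family. No member rose, where 3.10% of all tested genes did, and none rose at an unadjusted p under 0.05. By DESeq2's Wald test, limma-voom and edgeR with DESeq2 size factors no member rose either, where 5.53%, 2.88% and 3.01% of all tested genes did. The lower levels showed more in the unadjusted values. At an unadjusted p under 0.05, 26 members were lower (44.8%), where 14.8% of all tested genes were. In 27 members (46.6%) each transgenic mouse was below each wild-type mouse, where this held for 17.9% of all tested genes, and in no member was it the other way round. Members are not independent of each other, because the same 6 libraries and the same chromosome region stand behind them.

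The counts depended on the libraries and on the correction for GC content. None of the 3 calls was kept when any of the 6 mice was left out, although their log2 fold changes stayed between -0.69 and -0.45 for Pcdhb11, -0.52 and -0.46 for Pcdha3 and -0.73 and -0.53 for Pcdha9. The number of members lower at an unadjusted p under 0.05 was then 17, 16 and 18 without wild-type mouse 1, 2 or 3 and 24, 16 and 12 without transgenic mouse 1, 2 or 3. The shares of all tested genes in these fits were 8.77%, 9.59% and 14.6%, and 14.7%, 10.7% and 10.7%, against 29.3%, 27.6%, 31.0%, 41.4%, 27.6% and 20.7% of the members. With the trend on GC content removed from each library, no member was called and these 3 fold changes were -0.46, -0.43 and -0.56, while 19 (32.8%) were lower at an unadjusted p under 0.05, where 9.22% of all tested genes were. The median over the 58 genes stayed between -0.32 and -0.24 over the 6 fits that left out 1 mouse and was -0.25 with GC offsets, against 0.020 over all tested genes in that fit.

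The members that fell were Pcdhb11, Pcdha3 and Pcdha9. Pcdhb11 had 7.45, 10.3 and 8.40 CPM in the wild-type mice and 5.78, 5.53 and 5.90 CPM in the transgenic mice. The groups did not overlap, with a log2 fold change of -0.60 (SE 0.13) and an edgeR adjusted p of 0.0414. Its adjusted p was 0.0628 to 0.137 when single mice were left out. Pcdha3 had 3.34, 3.15 and 3.19 CPM in the wild-type mice and 2.29, 2.33 and 2.16 CPM in transgenic mice. These values lay close together within each genotype and apart between them, with a log2 fold change of -0.51 (SE 0.12) and an edgeR adjusted p of 0.0463, or 0.0719 to 0.187 without single mice. For Pcdha9 the wild-type mice had 2.63, 2.37 and 2.03 CPM and the transgenic mice 1.46, 1.49 and 1.57 CPM. All transgenic mice were lower, with a log2 fold change of -0.64 (SE 0.15) and an edgeR adjusted p of 0.0493, or 0.05 to 0.194 without single mice. Pcdha3 and Pcdha9 rest on 57 to 175 fragments per library, and 10.8% and 6.77% of the stretches of their own parts occur in other transcripts too.

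**Figure D2:**
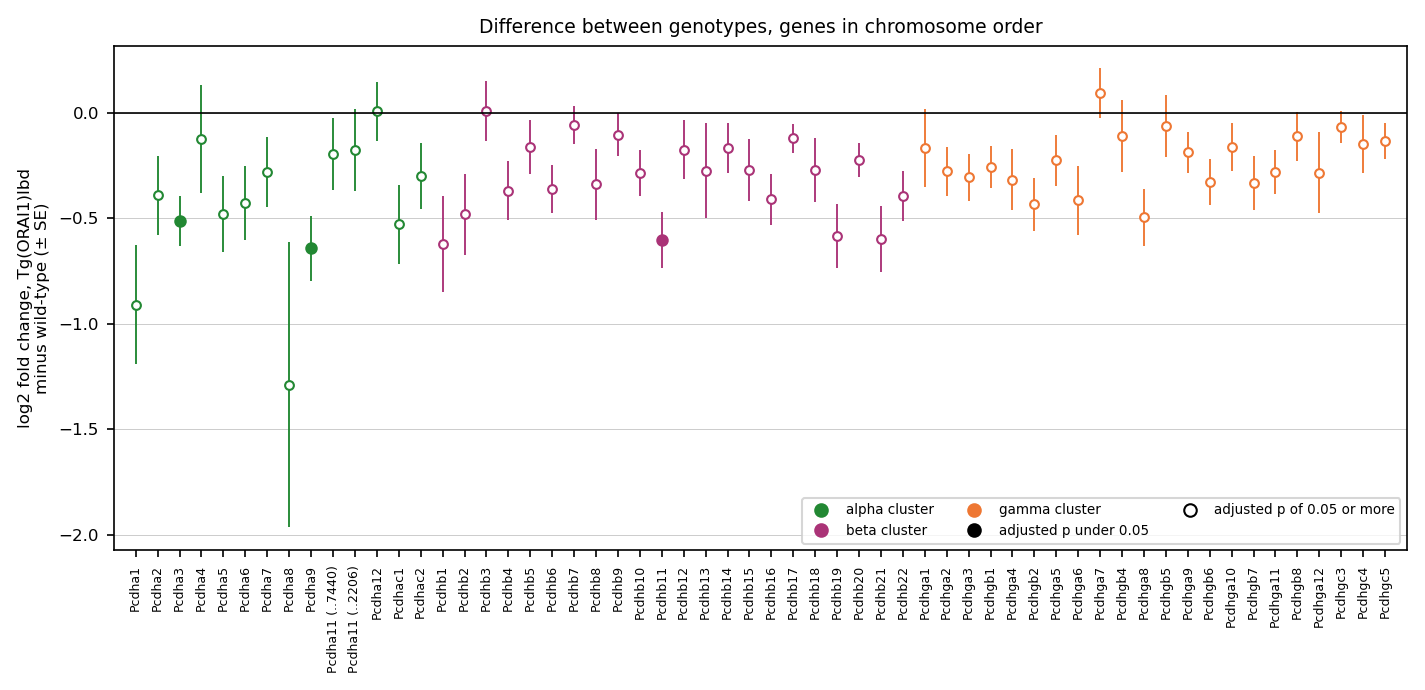
Log2 fold change (Tg(ORAI1)Ibd minus wild-type) with its SE for each of the 58 genes in chromosome order, coloured by cluster; filled points have an adjusted p under 0.05. Of the points, 55 lie below 0, and Pcdha3, Pcdha9 and Pcdhb11 are filled.

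In the alpha cluster 13 of 14 genes were below 0 and 6 were lower at an unadjusted p under 0.05. In 7 each transgenic mouse was below each wild-type mouse. The shares were 92.9%, 42.9% and 50.0%, where all tested genes had 51.7%, 14.8% and 17.9%. The lowest fold change of the family was that of Pcdha8, at -1.29 (SE 0.68). Its counts were 23, 4 and 24 in wild-type and 5, 4 and 10 in transgenic mice, so that wild-type mouse 2 stood with the transgenic mice and the groups overlapped (edgeR adjusted p = 0.259). The value was -0.81 without wild-type mouse 3 and -1.82 without transgenic mouse 3, the extremes of the 6 fits without 1 mouse. Pcdha1, named here after its value was seen, was next with -0.91 (SE 0.28), from 33, 21 and 33 fragments in wild-type and 17, 15 and 11 in transgenic mice (edgeR adjusted p = 0.0897). At the other end, Pcdha12 had 4.89, 4.90 and 4.04 CPM in the wild-type mice and 4.93, 5.05 and 3.92 CPM in transgenic mice, and the mouse labelled 3 was the lowest in both genotypes. Pcdha11 (ENSMUSG00000007440) overlapped between genotypes, at 4.34 ± 0.818 and 3.79 ± 0.466 CPM, a log2 fold change of -0.20 (SE 0.17) that ran from -0.33 to -0.06 without 1 mouse.

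In the beta cluster 21 of 22 genes were below 0 and 11 were lower at an unadjusted p under 0.05. In 12 each transgenic mouse was below each wild-type mouse. These are 95.5%, 50.0% and 54.5%, against 51.7%, 14.8% and 17.9% of all tested genes. Beta genes share no constant exon, so their counts cover at least 90.3% of the exonic length. The lowest fold change was that of Pcdhb1, at -0.62 (SE 0.23, edgeR adjusted p = 0.127), from 0.840, 0.924 and 0.977 CPM in the wild-type mice and 0.75, 0.524 and 0.480 CPM in transgenic mice. Pcdhb21 and Pcdhb19, named after their values were seen, came close to the call with -0.60 (SE 0.16) and -0.58 (SE 0.15) and edgeR adjusted p-values of 0.0620 and 0.0594. DESeq2's Wald test called both (adjusted p = 0.0353 and 0.0122), and edgeR called Pcdhb19 also without the filter on low counts (0.0298) and in the fit blocked on mouse number (0.0346). The 3 beta genes with the highest level per own length had small differences. Pcdhb7 had 17.8 ± 1.66 CPM in the wild-type mice and 17.0 ± 1.28 CPM in transgenic mice, Pcdhb3 had 12.9 ± 2.44 and 13.0 ± 1.28 CPM, and Pcdhb17 had 14.6 ± 0.679 and 13.5 ± 0.543 CPM, and the genotypes overlapped in all 3. Pcdhb22, named after its value was seen, had 16.9 ± 2.07 and 12.9 ± 1.58 CPM without overlap, a log2 fold change of -0.39 (SE 0.12, edgeR adjusted p = 0.0819, DESeq2 Wald adjusted p = 0.0359). The Wald test also called Pcdhb16, likewise named after its value was seen (log2 fold change -0.40, adjusted p = 0.0460). Across the 22 beta genes the fold change went with the wild-type level (Spearman's rho 0.61), where the points share the libraries and the wild-type values enter both measures. Within the 14 alpha genes rho was 0.35 and within the 22 gamma genes -0.14.

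In the gamma cluster 21 of 22 genes were below 0 (95.5%, against 51.7% of all tested genes), and none was called by edgeR after the filter. At an unadjusted p under 0.05, 9 were lower, and in 8 each transgenic mouse was below each wild-type mouse. These are 40.9% and 36.4%, where all tested genes had 14.8% and 17.9%. DESeq2's Wald test called 1 gamma gene, Pcdhga8, and so did edgeR without the filter on low counts (adjusted p = 0.0414), while limma-voom called 0. This gene had the lowest gamma fold change, at -0.50 (SE 0.14, edgeR adjusted p = 0.0674), from 13.1, 11 and 9.72 CPM in the wild-type mice and 7.78, 9.06 and 7.18 CPM in transgenic mice, and the groups did not overlap. Pcdhga11, the most abundant gamma gene outside the C-type, had 24.8, 22.4 and 20.7 CPM in the wild-type mice and 21.2, 18.2 and 16.6 CPM in transgenic mice. Its groups overlapped by 1 mouse, with a log2 fold change of -0.28 (SE 0.11, edgeR adjusted p = 0.137) and a range of -0.38 to -0.18 without 1 mouse. Pcdhga7 went the other way, with 11.6, 8.74 and 10.9 CPM in the wild-type mice and 11.6, 11.5 and 10.3 CPM in transgenic mice, and the genotypes overlapped. The 12 genes of gamma A type had a median of -0.28 and the 7 of gamma B type a median of -0.26.

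The 5 C-type genes were all below 0, where 51.7% of all tested genes were. None passed the test by edgeR, DESeq2's Wald test or limma-voom, where 4.00% of all tested genes fell by edgeR. The C-type median log2 fold change was -0.15, against -0.28 for the 53 others, though Pcdhac1 and Pcdhac2 lay beyond the latter. Near the share of all tested genes (14.8%), 1 of the 5 (20%) was lower at an unadjusted p under 0.05. That gene was Pcdhac1, the one with the lowest level, with 2.67, 2.68 and 1.98 CPM in the wild-type mice and 1.91, 1.41 and 1.76 CPM in the transgenic ones, and its log2 fold change was -0.53 (SE 0.19, edgeR adjusted p = 0.118). For Pcdhgc3 the values were 67.0, 66.4 and 76.3 CPM in the wild-type mice and 62.3, 72.3 and 65.4 CPM in transgenic mice, which overlapped (log2 fold change -0.07, SE 0.08). Pcdhgc5 had 90.4, 82.7 and 76.2 CPM in the wild-type mice and 84.1, 69.8 and 73.4 CPM in the transgenic ones, which is a log2 fold change of -0.13 (SE 0.09). Pcdhac2 had 33.5, 29.1 and 23.5 CPM in the wild-type mice and 27.9, 20.5 and 21.5 CPM in the transgenic ones, which is a log2 fold change of -0.30 (SE 0.16), and the spread within a genotype was as wide as the difference. Pcdhgc4 had 9.64 ± 1.41 and 8.71 ± 1.16 CPM (log2 fold change -0.15, SE 0.14). Leaving out 1 mouse moved the fold change of Pcdhac2 to between -0.45 and -0.15, that of Pcdhgc5 to between -0.22 and -0.05 and that of Pcdhgc4 to between -0.27 and -0.02. The difference between C-type and other genes was not tested.

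Summed over all 58 genes, the wild-type mice had 613, 587 and 591 CPM and the transgenic mice 528, 510 and 503 CPM. The groups did not overlap, and the transgenic mean of 514 ± 12.7 CPM was 14.0% below the wild-type mean of 597 ± 13.8 CPM. The sum of the beta genes was 194 ± 10.7 CPM in the wild-type mice and 162 ± 7.96 CPM in transgenic mice, without overlap. The gamma sum was 345 ± 13.5 and 305 ± 15.4 CPM, also without overlap, whereas the alpha sum of 58.9 ± 7.27 and 47.3 ± 5.63 CPM overlapped. The 12 alpha genes other than C-type summed to 27.8 ± 1.90 and 22.3 ± 1.58 CPM, without overlap. With the C-type genes taken out, the remaining 53 genes summed to 408, 397 and 405 CPM in the wild-type mice and 342, 338 and 333 CPM in transgenic mice. That gap of 16.3% was wide against SDs of 6.08 and 4.19 CPM. The sum of the C-type genes overlapped, at 194 ± 9.61 and 176 ± 8.86 CPM. As a share of the gamma counts, the C-type genes took 46.8%, 46.7% and 48.1% in wild-type and 48.7%, 49.5% and 50.5% in transgenic mice, which did not overlap. As a share of the alpha counts they took 52.6 ± 2.69% and 52.7 ± 2.79%. With 3 mice against 3, an exact permutation test of a single value cannot go below 0.1, so no p is given for these sums.

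**Figure D3:**
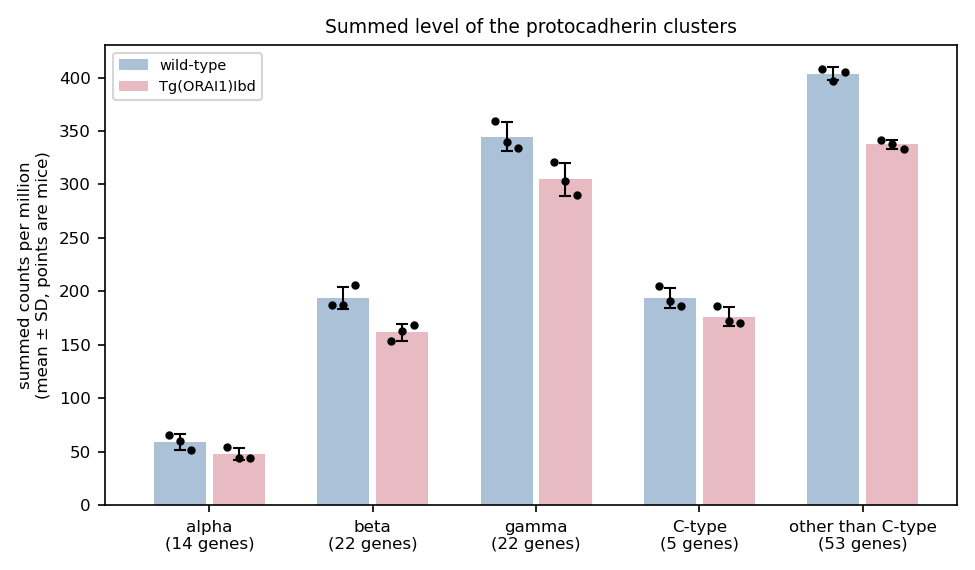
Summed level in CPM of the alpha, beta and gamma clusters, and of the C-type genes and all others; bars are means with SD, points are the 3 mice of each genotype. The sum of the 53 genes other than C-type is 403 CPM in the wild-type mice and 338 CPM in transgenic mice with little spread, and the alpha and C-type sums overlap.

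In each transgenic mouse most members were below their wild-type mean. Of the 58 genes, these were 49, 50 and 54 in transgenic mice 1, 2 and 3. The counts were 24, 32 and 33 in wild-type mice 1, 2 and 3, which themselves form that mean. The share of all tested genes below their wild-type mean was not computed for each mouse. The median deviation from the wild-type mean was -0.27, -0.31 and -0.30 on the log2 scale in the transgenic mice. In the wild-type mice it was 0.04, -0.01 and -0.01, and the centring on these same mice holds such values near 0. Within a genotype the clusters did not move alike. Among the wild-type mice, mouse 1 had the highest alpha median (0.12) and mouse 3 the lowest (-0.13), whereas in the beta cluster mouse 3 had the highest median (0.09) and mice 1 and 2 were alike (-0.05 for both). Transgenic mouse 1 likewise had the highest alpha median of its genotype (-0.24) and the lowest beta median (-0.36). In the gamma cluster, wild-type mouse 3 (-0.10) and transgenic mouse 1 (-0.13) were close together.

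**Figure D4:**
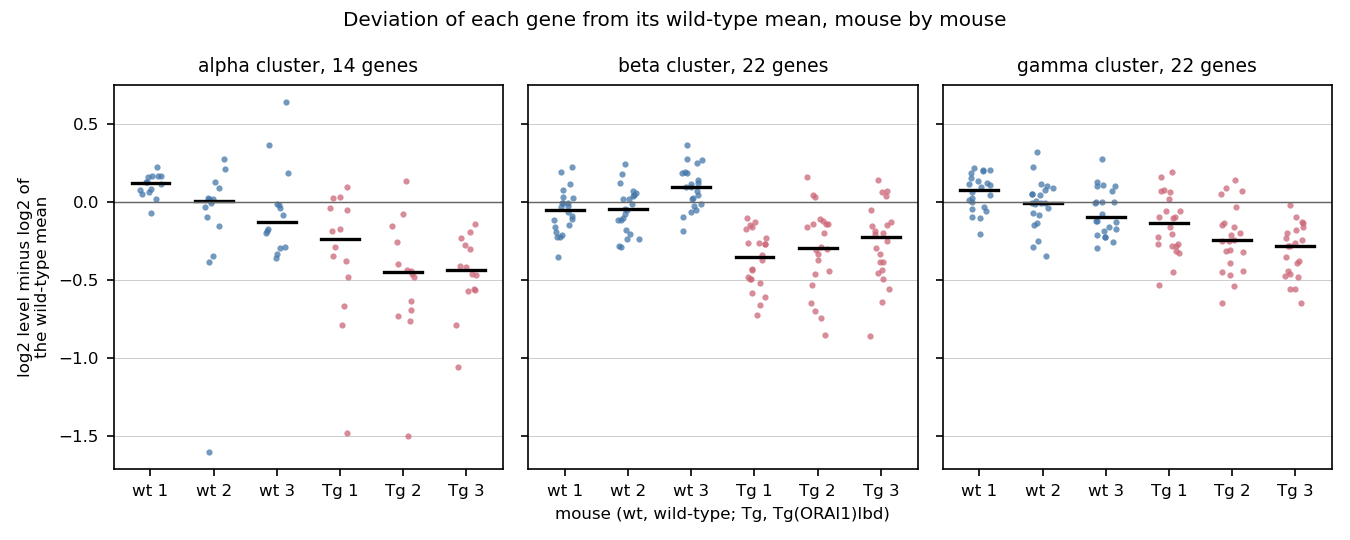
Deviation of each gene from its own wild-type mean on the log2 scale, with 1 column per mouse and 1 panel per cluster; black bars are medians. Medians of the transgenic mice lie between -0.45 and -0.13, below those of the wild-type mice in each panel, with wild-type mouse 3 and transgenic mouse 1 nearest each other in the gamma and alpha panels.

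The replicate spread set how small a difference could be seen. The coefficient of variation among wild-type mice had a median of 15.0% over alpha, 11.5% over beta and 10.3% over gamma genes, where counting error alone would give medians of 9.53%, 5.06% and 4.77%. For the 5 C-type genes it was 14.7%, against 2.78% from counting, so their depth was not the limit.

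Across the 58 genes, which share libraries and sequence, Spearman's rho of the fold change was -0.07 with the GC content of the own part, 0.24 with its length, 0.34 with the position along the chromosome and 0.41 with the wild-type level. Within clusters the rho with own length was -0.09 in the alpha, -0.08 in the beta and 0.52 in the gamma cluster. The own parts had a median GC content of 52.9% in the alpha, 46.1% in the beta and 51.5% in the gamma cluster. Of 13 other genes tested within or next to the locus, 0 were called by edgeR, by DESeq2's Wald test or by limma-voom. By edgeR, 4.00% of all tested genes fell and 3.10% rose, so 0 of 13 is no result about these genes. At an unadjusted p under 0.05, 1 was lower (3222401L13Rik, inside the locus) and 3 were higher (Zmat2, Hdac3 and Rell2, all outside it). Of all tested genes 14.8% were lower and 13.0% higher, and 13 genes are too few to set against these shares. Taf7, a subunit of the transcription factor TFIID that lies between the beta and gamma clusters, had 8.94, 6.70 and 7.55 CPM in the wild-type mice and 8.91, 8.09 and 7.39 CPM in the transgenic ones, which is a log2 fold change of 0.07 (SE 0.13).

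Because the samples are whole hippocampi, fewer cells of a type and less RNA per cell cannot be told apart. The choroid plexus markers given above fell with the genotype and at the same time as the protocadherin levels, and gamma protocadherins are known to be active in that epithelium. Ttr, the main secreted protein of the choroid plexus, had 3503, 3887 and 2041 CPM in the wild-type mice and 383, 178 and 301 CPM in transgenic mice. Summed interneuron markers ranged from 642 to 806 CPM in the wild-type mice and from 549 to 694 CPM in transgenic mice, where 1 of 6 (Gad2, an enzyme of GABA synthesis) fell and Gad1 and Slc32a1 were lower at an unadjusted p under 0.05. The other 3 overlapped, with log2 fold changes of -0.10 for Sst, -0.01 for Vip and 0.09 for Pvalb. Sums of astrocyte, oligodendrocyte, microglia, endothelium and meninges markers overlapped between genotypes, but the endothelial marker Cldn5 rose by 0.66 on the log2 scale (edgeR adjusted p = 0.0430). Without overlap but short of the threshold, Aif1 of microglia was higher (0.51, edgeR adjusted p = 0.0775) and Igf2 of the meninges was lower (-1.20, edgeR adjusted p = 0.0848). The part of any of these cell types in the protocadherin levels was not tested.

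Genes that act with or around the clustered protocadherins were more often lower than higher. Of 73 such genes, all tested, 8 fell (11%) and 3 rose (4.11%) by edgeR, where 4.00% and 3.10% of all tested genes did, and the median log2 fold change was -0.08. At an unadjusted p under 0.05, 25 were lower and 5 higher, and the groups did not overlap in 23 that were lower and 10 that were higher. These are 34.2% and 6.85%, where 14.8% and 13.0% of all tested genes were lower and higher, and 31.5% and 13.7%, where the groups did not overlap in 17.9% and 16.9% of all tested genes. With GC offsets, Dchs2 alone fell and Brk1 alone rose, and the other 9 did not pass the test. Without wild-type mouse 1 or 2 or transgenic mouse 2 or 3, none of the 73 genes fell or rose by edgeR. Among the 12 non-clustered protocadherins, which stand as single genes outside the 3 clusters, 3 fell and none rose by edgeR, and none rose at an unadjusted p under 0.05, by DESeq2's Wald test or by limma-voom. Pcdh10, which takes part in synapse elimination, had 136, 123 and 113 CPM in the wild-type mice and 96.8, 97.7 and 100 CPM in transgenic mice (log2 fold change -0.34, SE 0.07, edgeR adjusted p = 0.0350). Pcdh9 and Pcdh17, a regulator of presynaptic clusters, fell by 0.31 and 0.22 on the log2 scale. With GC offsets these values were -0.20 and -0.04, and with gene length offsets that of Pcdh10 was -0.18. Of 9 large cadherins 2 fell, namely Dchs2, a relative of the planar polarity protein Dachsous, and the giant cadherin Fat1. Dchs2 had 6.32, 6.68 and 6.18 CPM in the wild-type mice and 4.31, 3.90 and 3.87 CPM in transgenic mice, which is the largest fall of the 73 (log2 fold change -0.67, SE 0.10, edgeR adjusted p = 0.0196). The log2 fold change of Fat1 was -0.29 (SE 0.07) and -0.14 with gene length offsets.

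The promoters of the clusters are chosen through DNA methylation, the DNA-binding protein CTCF and the cohesin ring, which loops a distant enhancer to 1 promoter. Of 23 genes for these steps 2 fell and 2 rose by edgeR, where 4.00% and 3.10% of all tested genes did. At an unadjusted p under 0.05, 7 were lower (30.4%, against 14.8%) and 2 higher (8.70%, against 13.0%). DESeq2's Wald test called 4 lower (17.4%, against 6.16%), Pds5a and Wapl among them, and 2 higher (8.70%, against 5.53%). Ctcf itself had 82.4, 81.3 and 76.5 CPM in the wild-type mice and 77.2, 77.8 and 76.4 CPM in transgenic mice and did not pass the test (log2 fold change -0.05, SE 0.04). The cohesin subunit Stag2 fell by 0.30 on the log2 scale, and Tet1, an enzyme that oxidises methylated cytosine, fell by 0.34. With GC offsets Stag2 was at -0.12, Wapl at -0.08 and Pds5a at 0.01, and with gene length offsets Tet1 was at -0.19. Mau2, part of the cohesin loader, rose by 0.22 and Trim28, a corepressor that works with the histone methyltransferase Setdb1, by 0.20. Dnmt3b, the methyltransferase that marks these promoters in development, was low, at 1.21 to 1.33 CPM in the wild-type mice and 1.39 to 1.79 CPM in transgenic mice, with a log2 fold change of 0.30 (SE 0.16, edgeR adjusted p = 0.281).

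Of 8 genes for the cleavage of protocadherins at the membrane by Adam10 and gamma-secretase, 1 fell (12.5%, against 4.00% of all tested genes), the gamma-secretase subunit Aph1c (log2 fold change -0.27, SE 0.05, and -0.17 with GC offsets). At an unadjusted p under 0.05, 3 were lower (37.5%, against 14.8%) and 1 higher (12.5%, against 13.0%). The other subunits among them, Ncstn, Aph1b and Psenen, did not overlap between genotypes, with log2 fold changes of -0.17, -0.18 and 0.20 (edgeR adjusted p = 0.0794, 0.0745 and 0.137). Among 21 cytoplasmic and synaptic partners, none fell by edgeR and 1 rose, Brk1, a subunit of the WAVE complex that branches actin (log2 fold change 0.20, SE 0.04). At an unadjusted p under 0.05, 7 of the 21 were lower (33.3%, against 14.8%) and 2 higher (9.52%, against 13.0%), and 2 were called lower by DESeq2's Wald test (Nckap1 and Nlgn1) and 0 by limma-voom. The kinases Ptk2 and Ptk2b, which alpha and gamma protocadherins restrain, did not pass the test, with log2 fold changes of 0.04 (SE 0.04) and 0.11 (SE 0.10).

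**Figure D5:**
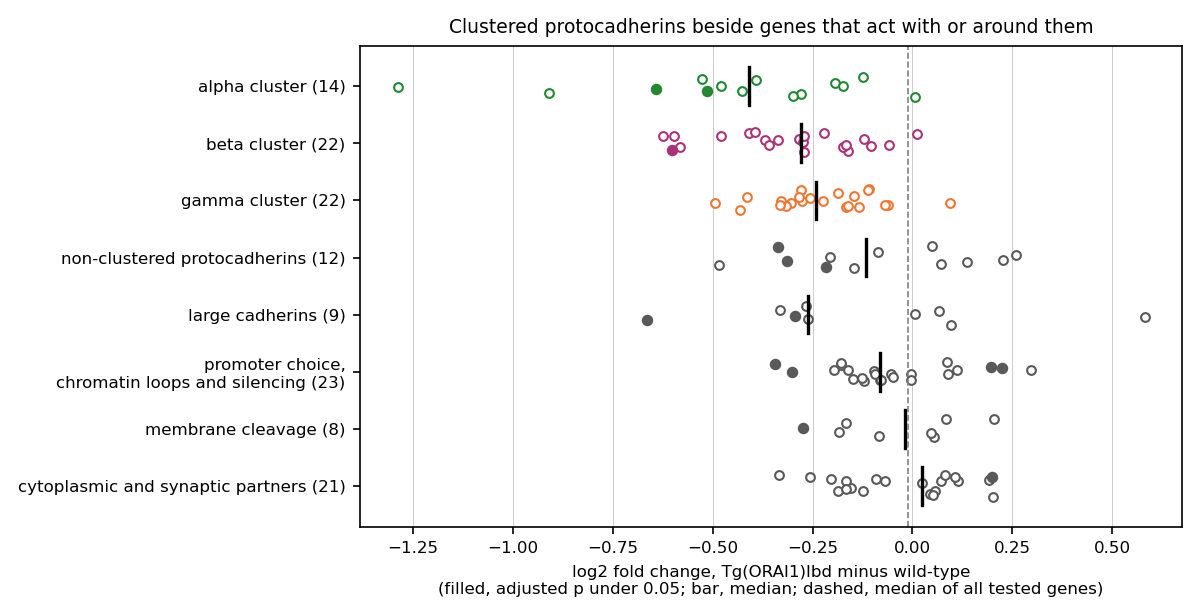
Log2 fold change (Tg(ORAI1)Ibd minus wild-type) of the genes of the 3 clusters beside 5 groups of genes that act with or around them; filled points have an adjusted p under 0.05, bars are medians, and the dashed line is the median of all tested genes. The medians of the clusters, -0.41, -0.28 and -0.24, lie to the left of the dashed line, and the groups have medians between -0.26 (large cadherins) and 0.02 (partners).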

How the data were processed

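Reads were filtered with Trimmomatic and aligned with STAR to mm10 by the authors, who counted on genes with featureCounts 1.5.0-p1 in its setting for read pairs, on the Ensembl 95 annotation of GRCm38, with the strand kept (setting 2), primary alignments and a mapping quality of at least 3. The counts that the authors deposited are whole fragments, not normalized, beside each gene's exonic length. The labels call the reads paired-end but give the length of a single read, so whether 1 count stands for a read pair or a read could not be settled, and both are called fragments here. FVB/NJ reads that differ from the reference genome may have been lost or misplaced in similar exons.

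Symbols, positions and exons were taken from GENCODE M21. The own part of a gene is the exonic sequence that no other gene covers on its strand. Genes were kept by filterByExpr (edgeR 4.0.16, minimum count 10), which left 19087, libraries were scaled by TMM, and the quasi-likelihood test of edgeR was applied to the genotypes, with Benjamini-Hochberg adjustment and a threshold of 0.05. Genes called fell or rose by that threshold. CPM divide a count by the TMM-scaled total of its library, and FPKM are CPM per kilobase of own part. Limma 3.58.1, DESeq2 1.42.0, R 4.3.3 and Python 3.11.15 were used, and the fits were tested on simulated data.

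The members, the gene lists and the tests were chosen with earlier results of these data known. Named were the C-type genes, every member called, the 3 members with the highest level and those with the highest and lowest fold change in each cluster, and the called genes of the pathway list with the largest fold changes. Other genes were named after their values were seen. Alternatives were other scalings, tests and filters, the replicate number as a block, offsets for GC content or gene length (loess, span 0.5) and fits without each mouse. GC offsets computed on the own parts were added after seeing the data. P-values set the difference between genotypes against the spread between mice, which is estimated with information from other genes.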

Additional observations from a re-analysis of the deposited data

How the results depend on the processing

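Of the 58 genes, 51 to 57 had a fold change below 0 over the 18 alternatives, and 12 to 29 were lower at an unadjusted p under 0.05. These were 17 with DESeq2's Wald test (29.3%, against 11.9% of all tested genes) and 12 to 24 without 1 mouse (20.7% to 41.4%, against 8.77% to 14.7%). Against the 3 calls of the analysis reported, 1 member was called with DESeq2 size factors, 1 with limma-voom and 6 with DESeq2's Wald test, which called 2230 genes in all and kept Pcdhb11 but not Pcdha3 (adjusted p = 0.0654) or Pcdha9 (0.0630). Without the filter Pcdhb11, Pcdhb19 and Pcdhga8 were called. There were 0 calls with GC offsets (over whole transcripts or own parts, with or without the block), with gene length offsets or without any 1 mouse (0 to 0). The replicate numbers could not be shown to pair the mice, since deviations of same-numbered mice correlated at 0.398, -0.357 and 0.388, and with the replicate block 1 member was called (Pcdhb19), 29 were lower at an unadjusted p under 0.05 (50.0%, against 14.7%), and 3 genes of the pathway list fell and 0 rose. The median of the gamma cluster was -0.30 to -0.15 without 1 mouse. Of the pathway list, 1 gene fell and 1 rose with GC offsets, with GC offsets of own parts and with gene length offsets, 2 fell and 0 rose with GC offsets and the block, and 0 to 8 fell and 0 to 2 rose without 1 mouse. With GC offsets, also with the block or on own parts, the fold changes of Pcdhb7 (0.0235, 0.0249 and 0.0233) and Pcdhb17 (0.0075, 0.0081 and 0.0074) were above 0, and with own parts that of Pcdha12 was -0.0415. Without 1 mouse the fold change ran from -0.11 to 0.0047 for Pcdhgc3, from -0.0715 to 0.13 for Pcdha12, from -0.11 to 0.0118 for Pcdhb7, from -0.0791 to 0.17 for Pcdhb3 and from -0.0018 to 0.19 for Pcdhga7. Ranks of wild-type levels correlated at 0.881 with those per deposited length and 0.880 with those without division by length. The cause of these differences was not tested.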
